A study of Mus musculus with 19 samples.

Results

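The genes described here encode the neurotrophins brain-derived neurotrophic factor (Bdnf) and neurotrophin-3 (Ntf3), the related growth-promoting factor neuritin (Nrn1), the Trk receptors TrkB (Ntrk2) and TrkC (Ntrk3), and the sorting receptor sortilin (Sort1). They were taken by symbol, 6 of the 14459 genes measured, in hippocampal slices of mice that lack Fmr1 and of their wild-type littermates. Fmr1 encodes FMRP, an RNA-binding protein of neuronal mRNAs whose loss causes fragile X syndrome. Fmr1 KO males were set against WT males, both C57BL/6 and 28 to 35 days old, with the knockout line backcrossed for more than 10 generations. Each biological replicate pooled 8 to 10 slices of 400 µm from 6 to 8 mice of a genotype, so the spread between replicates is a spread between pools and not between animals. Slices of both genotypes rested at 30 °C for 3 to 4 h before cycloheximide, which holds ribosomes on the mRNA, was added at 100 µg/ml. The protocol has CA3 cut away to enrich CA1, whereas the source name also gives cortex, and the tissue is called hippocampal slices here. Of each lysate, one portion gave cytoplasmic RNA for RNA-seq, and the rest was digested with RNases so that the mRNA pieces protected by ribosomes (footprints, RPF) could be sequenced. The tables used here hold 3 KO and 4 WT libraries for each assay, and the n of every value below is 3 for KO and 4 for WT. Another 5 of the 19 listed samples were not analysed here.

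Neurotrophins are made as longer precursors, cleaved by furin-like proteases and released from neurons in part in response to activity. Mature BDNF binds TrkB and mature NT-3 binds TrkC, and the receptors' kinase domains then feed the Ras-MAPK, PI3K-Akt and phospholipase C gamma pathways. The uncleaved precursors instead bind p75NTR (Ngfr) together with sortilin, which also steers BDNF into the regulated secretory route. In the hippocampus BDNF acting on TrkB is known for its part in synaptic potentiation, and neuritin is an activity-induced surface protein that promotes the growth of neurites and synapses. Both Ntrk2 and Ntrk3 also give truncated receptors without a kinase, and Bdnf is transcribed from many alternative first exons. All values below are per gene, so such forms could not be told apart.

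Library totals were 15.57 to 22.71 M estimated counts for footprints and 4.97 to 9.96 M for RNA, and the median gene had 329 to 482 and 114 to 229 counts. Fmr1 itself followed the labels: its footprints were 4.81 ± 0.222 TPM (transcript abundance scaled to gene length and library total, mean ± SD) in KO and 44.4 ± 1.53 TPM in WT, a log2 difference of -3.21 ± 0.06 (SE, edgeR adjusted p = 9.12e-12). Fmr1 RNA was 4.42 ± 0.771 TPM in KO and 17.3 ± 1.46 TPM in WT. Each assay was scaled on its own, with a median log2 difference over all genes of -0.0001 in footprints and -0.005 in RNA, so a change shared by all genes would not be seen.

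Cell type markers were read in footprints, and in RNA where stated. Lower or higher past the test means an edgeR adjusted p under 0.05. By this rule 10.4% of all genes tested were lower and 8.15% higher in footprints, and 2.77% and 2.11% in RNA. Single genes separated by genotype without overlap, KO lower, made up 15.6% in footprints and 10% in RNA. With KO higher these shares were 15.1% and 9.03%. The sums below add several genes and have no such share. The lowest deposited value in each library was 0.88 to 1.00 TPM, so values have a floor near 1 TPM and no gene is at 0. The lowest mean of a marker was 13.2 TPM for CA1, 5.19 TPM for CA3, 3.64 TPM for dentate granule neurons, 37.4 TPM for astrocytes and 12.6 TPM for microglia, all above that floor. Summed CA1 marker footprints were 327 to 343 TPM in KO and 360 to 367 TPM in WT, with 3 of 7 genes lower and 1 higher past the test. The CA3 sums were 254 to 260 TPM in KO and 265 to 277 TPM in WT, with 3 of 8 genes lower. Dentate granule neuron sums overlapped, with 834 to 941 TPM in KO and 893 to 923 TPM in WT, and so did astrocyte sums, with 4767 to 4966 TPM in KO and 4866 to 5157 TPM in WT. Microglial markers were lower in 9 of 9 genes, with sums of 519 to 557 TPM in KO and 626 to 652 TPM in WT. Thalamus markers went the other way, with 4 of 8 genes higher and sums of 231 to 236 TPM in KO and 204 to 221 TPM in WT, and their RNA sums were 174 to 191 TPM in KO and 133 to 162 TPM in WT. Interneuron markers were lower in 4 of 9 genes, with overlapping sums of 3348 to 3634 TPM in KO and 3578 to 3877 TPM in WT. Interneuron RNA sums did not overlap, with 2235 to 2438 TPM in KO and 2461 to 2799 TPM in WT, and 1 of 9 genes was lower. Cck had the highest RNA of these markers and the largest TPM difference, with 1356 ± 80.9 TPM in KO and 1626 ± 89.5 TPM in WT. Only 5 of the 9 genes had RNA differences below 0, and Gad1 RNA was 232 ± 23.0 TPM in KO and 218 ± 18.2 TPM in WT. RNA sums were also lower in KO without overlap for CA1 (582 to 639 against 658 to 725 TPM) and CA3 (316 to 332 against 334 to 345 TPM). The same held for microglia (838 to 845 against 980 to 1012 TPM), while dentate and astrocyte RNA sums overlapped. Ttr, a choroid plexus marker chosen here with its values in view, rose, with 6.95 ± 4.32 TPM in KO and 1.97 ± 0.356 TPM in WT (log2 difference 1.79, edgeR adjusted p = 0.00756). Its KO libraries ran from 4.33 to 11.9 TPM. Of the 4 choroid plexus markers measured, 1 was higher and 1 lower past the test, and 3 had differences below 0. Choroid plexus sums overlapped, with 16.9 to 24.8 TPM in KO and 15.3 to 17.0 TPM in WT. The part of these marker shifts in the results below was not tested. In such bulk tissue fewer cells of a type and less RNA per cell cannot be told apart.

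Footprints of 4 of the 6 genes fell in KO slices and none rose. These were both Trk receptors, sortilin and neuritin, and their footprints were lower by 10.0% to 18.2%. Bdnf and Ntf3 footprints did not pass the test. A call is an edgeR quasi-likelihood adjusted p under 0.05 over all genes tested, and by this rule 10.4% of all 14438 genes tested were lower and 8.15% were higher, or 18.5% in either direction. The count of 0 higher genes among the 6 was also 0 at an unadjusted p under 0.05, by DESeq2 and by limma. RNA fell for Ntrk3 only, with 2.77% of all genes called lower in RNA, 2.11% higher and 4.89% in either direction. The median log2 difference of the 6 genes was -0.17 in footprints and -0.12 in RNA.

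Ntrk3 encodes TrkC, the NT-3 receptor, and showed the lowest KO to WT ratio of the 6 genes in both assays (GRCm38.p6 chromosome 7, 78179986 to 78581034). Its footprints were 80.9, 85.3 and 81.7 TPM in the KO libraries, against 98.5, 102, 101 and 101 TPM in the WT libraries. The KO values were all lower than the WT values, and 15.6% of all genes showed this separation in footprints, with 15.1% separated the other way. The log2 difference was -0.29 ± 0.04 (SE, edgeR adjusted p = 0.000807), and Ntrk3 footprints thus fell by 18.2%. Ntrk3 RNA was 172, 152 and 167 TPM in KO, against 189.8, 197, 184 and 202 TPM in WT. Here too the groups did not overlap, as for 10% of all genes in RNA, with 9.03% the other way. Ntrk3 RNA fell by 15.4% (log2 difference -0.24 ± 0.06, edgeR adjusted p = 0.0228). This RNA call did not hold without KO replicate 2 (adjusted p = 0.0988), WT replicate 2 (0.0554) or WT replicate 4 (0.081), nor with limma on log2(TPM + 1) (0.0565).

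Ntrk2 encodes TrkB, the BDNF receptor, carried by neurons in its full-length form and by astrocytes mainly as a truncated form (chromosome 13, 58806472 to 59133970). Ntrk2 footprints were 416, 432 and 419.9 TPM in KO, against 458, 475, 467 and 469 TPM in WT. All KO libraries were below all WT libraries. The log2 difference was -0.15 ± 0.04 (edgeR adjusted p = 0.0114), so Ntrk2 footprints fell by 10.0%. Its RNA was 545, 499 and 498 TPM in KO, against 549, 509.6, 528 and 546 TPM in WT. These groups overlapped, since the first KO library lay within the WT range. The RNA difference of -0.05 did not pass the test (adjusted p = 0.585, 95% interval -0.16 to 0.05).

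Sort1 encodes sortilin, the sorting receptor that binds proneurotrophins (chromosome 3, 108283974 to 108361519). Sort1 footprints were 265, 274 and 273 TPM in KO, against 303, 310.0, 305 and 302 TPM in WT. The KO libraries were again all lower, and the spread within each genotype was small, with SDs of 5.14 TPM in KO and 3.68 TPM in WT. Footprints of Sort1 fell by 11.8% (log2 difference -0.18 ± 0.04, edgeR adjusted p = 0.00521). Sort1 RNA was 377, 350.2 and 361 TPM in KO, against 386, 382, 392 and 371 TPM in WT. One KO library exceeded the lowest WT library, and the RNA difference of -0.08 was not called (adjusted p = 0.374, 95% interval -0.18 to 0.02).

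Nrn1 encodes neuritin, which is anchored to the cell surface and is induced by activity and by BDNF (chromosome 13, 36725622 to 36734477). Nrn1 footprints were 354, 341 and 358 TPM in KO, against 392, 414, 407 and 380.0 TPM in WT. No KO library reached the lowest WT library. Nrn1 footprints fell by 12.3% (log2 difference -0.19 ± 0.04, edgeR adjusted p = 0.00800). RNA of Nrn1 was 261, 231 and 246 TPM in KO, against 277, 279.6, 247 and 295 TPM in WT. The third WT library lay among the KO libraries. The RNA difference was -0.16, close to the footprint difference in size, and did not pass the test (adjusted p = 0.185, 95% interval -0.30 to -0.02 before adjustment over genes).

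**Figure D1:**
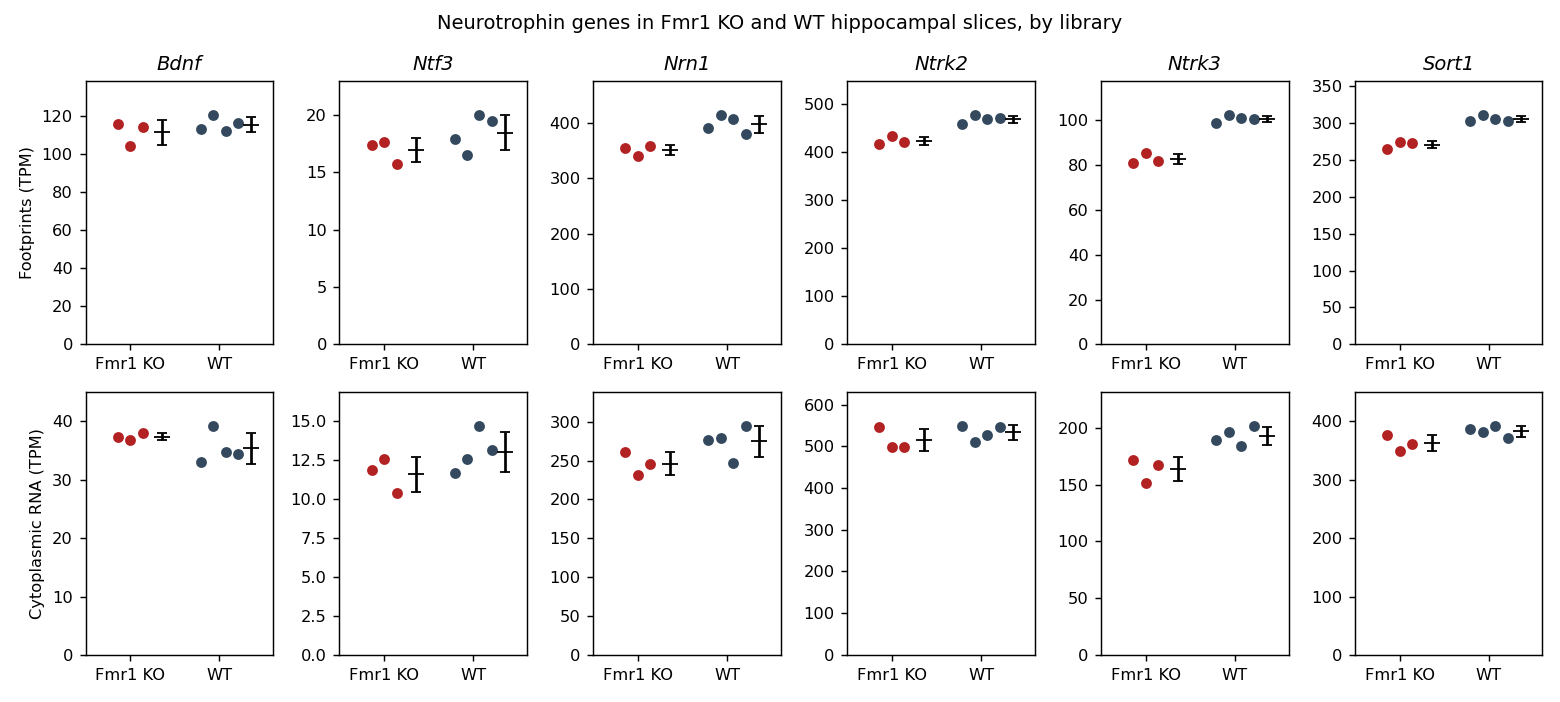
Footprint and RNA levels of the 6 genes by library, in TPM, with Fmr1 KO (3 libraries) left of WT (4 libraries) in each panel; points are libraries and bars are means with SD. KO and WT points do not overlap for Nrn1, Ntrk2, Ntrk3 and Sort1 footprints and for Ntrk3 RNA, and they overlap in the other panels.

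Bdnf encodes the ligand of TrkB (chromosome 2, 109674700 to 109727043). Its reads are summed over all starts of the gene, for which RefSeq lists 12 transcripts in GRCm38.p6. The RefSeq promoter table holds 7 start windows of Bdnf, 2 of Ntf3 and 1 of Ntrk2. They were searched on both strands for the CREB site TGACGTCA and for TCACGTCA, a calcium-responsive variant known from Bdnf whose other strand reads TGACGTGA. The motif was present in 1 of the 7 Bdnf windows and in none of the Ntf3 or Ntrk2 windows, and 725 of all 32851 windows (2.21%) held at least 1 of them. The 100 bases before that start are shown because this activity-controlled start is 1 of several that the gene's value adds together. Capitals mark the match, which begins 38 bases before the start. A match is a description of the sequence and no measurement of binding or of which start was used.
Bdnf, chr2:109692336-109692435, plus strand, GRCm38.p6: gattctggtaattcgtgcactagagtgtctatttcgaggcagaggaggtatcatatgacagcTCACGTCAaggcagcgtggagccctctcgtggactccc

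Bdnf footprints were 116, 104 and 114 TPM in KO, against 113, 121, 112 and 117 TPM in WT. The groups overlapped, with 2 of the KO libraries inside the WT range and the other below it. The log2 difference was -0.06 ± 0.05 (edgeR adjusted p = 0.443), with a 95% interval of -0.16 to 0.04. Bdnf RNA was 37.3, 36.8 and 38.1 TPM in KO, against 33.0, 39.2, 34.8 and 34.4 TPM in WT. Here the KO libraries lay within the WT range. Bdnf was the only one of the 6 genes with an RNA difference above 0, at 0.09 ± 0.08 (adjusted p = 0.664, 95% interval -0.09 to 0.26). The unadjusted edgeR p of 0.357 is larger than this SE implies, so the interval is too narrow. The RNA value rests on 90.8 to 214 estimated counts per library, which limits what size of change could be seen.

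Ntf3 encodes neurotrophin-3, the ligand of TrkC (chromosome 6, 126101412 to 126166772). It had the lowest level of the 6 genes in both assays. Its footprints were 17.4, 17.7 and 15.7 TPM in KO, against 17.9, 16.5, 19.9 and 19.4 TPM in WT. The second WT library lay inside the KO range. The log2 difference was -0.14 ± 0.07 (edgeR adjusted p = 0.174), with a 95% interval of -0.29 to 0.00. Ntf3 RNA was 11.9, 12.6 and 10.4 TPM in KO, against 11.6, 12.6, 14.7 and 13.2 TPM in WT. These values also overlapped, and they rest on 34.2 to 62.1 estimated counts per library. The RNA difference of -0.20 ± 0.12 was not called (adjusted p = 0.507, 95% interval -0.45 to 0.05). Its unadjusted edgeR p of 0.203 is larger than this SE implies, so the SE and interval are too narrow.

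**Figure D2:**
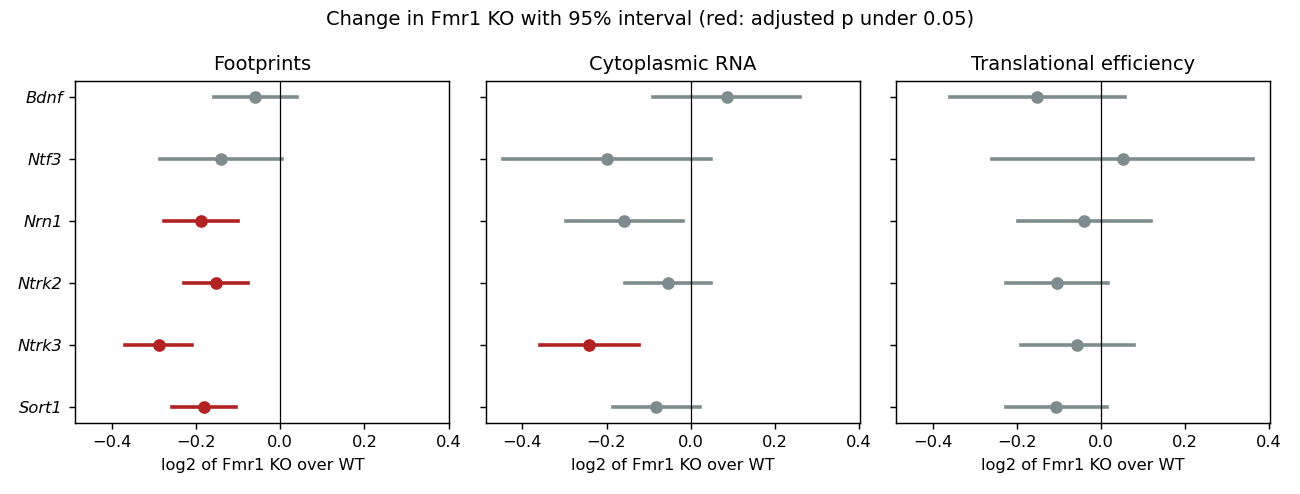
Log2 of Fmr1 KO over WT for the 6 genes in footprints, in RNA and in translational efficiency, as edgeR estimates (points) with 95% intervals (lines); red marks an adjusted p under 0.05. Red appears for Nrn1, Ntrk2, Ntrk3 and Sort1 in footprints, for Ntrk3 in RNA and for no gene in translational efficiency.

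Translational efficiency (TE), the footprint change beyond the RNA change, was tested in 1 fit of the 14 libraries, as an interaction term. No TE difference was called for any of the 6 genes, where 0.0346% of all 14435 genes tested were called in either direction (0.0139% higher and 0.0208% lower). Among the 6 genes the count was also 0 at an unadjusted p under 0.05, by DESeq2 and by limma. The lower footprints of Ntrk2, Nrn1, Ntrk3 and Sort1 were therefore not shown to differ from the changes in their RNA. For Sort1 the TE difference was -0.11, with a 95% interval of -0.23 to 0.01 (edgeR adjusted p = 0.526). Ntrk2 was alike, at -0.11 with an interval of -0.23 to 0.02 (adjusted p = 0.536). For Ntrk3 it was -0.06, with an interval of -0.19 to 0.08, and the footprint and RNA differences were of similar size. Nrn1 had a TE difference of -0.04, with an interval of -0.20 to 0.12. The Bdnf value was -0.15, with an interval of -0.36 to 0.06, since its footprint difference was below 0 and its RNA difference above 0. The Ntf3 value was 0.05, with the widest interval of the 6 genes, -0.26 to 0.36.

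Levels between genes were compared in TPM, which is per length. In WT RNA the order was Ntrk2 at 533 TPM, Sort1 at 383, Nrn1 at 274, Ntrk3 at 193, Bdnf at 35.4 and Ntf3 at 13.0, and KO RNA had the same order. Receptor RNA thus exceeded ligand RNA: Ntrk2 RNA was 13.8 times Bdnf RNA in KO slices and 15.1 times in WT slices. In footprints the order changed at 2 places, in KO as in WT. Nrn1, with 351 ± 8.96 TPM in KO and 398 ± 15.3 TPM in WT, stood above Sort1, with 270.5 ± 5.14 TPM in KO and 305 ± 3.68 TPM in WT. Bdnf, with 112 ± 6.38 TPM in KO and 116 ± 3.75 TPM in WT, stood above Ntrk3, with 82.6 ± 2.34 TPM in KO and 100.4 ± 1.47 TPM in WT. No 2 neighbours in either order had overlapping libraries within a genotype.

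The ratio of footprint TPM to RNA TPM, taken for libraries of the same genotype and replicate number, ran in the order of secreted or anchored factors above receptors. The protocol takes both assays from one lysate, the match by number is by label only, and deviations from the group means correlated by -0.11 to 0.32 over the 7 matches. Each TPM is scaled to its own library total, so the ratio is relative and does not count ribosomes per mRNA. The Bdnf ratio was 2.98 ± 0.139 in KO and 3.28 ± 0.166 in WT (SD), where the median gene had 0.783 in KO and 0.780 in WT. This placed Bdnf at the 96.7 percentile of all genes in KO and the 97.1 percentile in WT. The Bdnf ratios were 3.11, 2.84 and 3.00 in the KO matches, against 3.44, 3.07, 3.23 and 3.39 in the WT matches, and the groups overlapped by 1 library each. Ntf3 had 1.46 ± 0.0539 in KO and 1.42 ± 0.104 in WT, and Nrn1 had 1.43 ± 0.0633 in KO and 1.46 ± 0.149 in WT. These 2 genes did not differ beyond their spread. Ntrk2 had 0.824 ± 0.0532 in KO and 0.878 ± 0.0421 in WT, near the median gene. Sort1 had 0.747 ± 0.0408 in KO and 0.796 ± 0.0185 in WT, and its libraries overlapped those of Ntrk2 in KO but not in WT. Ntrk3 had the lowest ratio, 0.507 ± 0.0490 in KO and 0.521 ± 0.0203 in WT, at the 25.4 percentile in KO and the 27.3 percentile in WT. The same length was used for a gene in both assays, so it cancels in the ratio, and a footprint does not show whether its ribosome was moving.

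**Figure D3:**
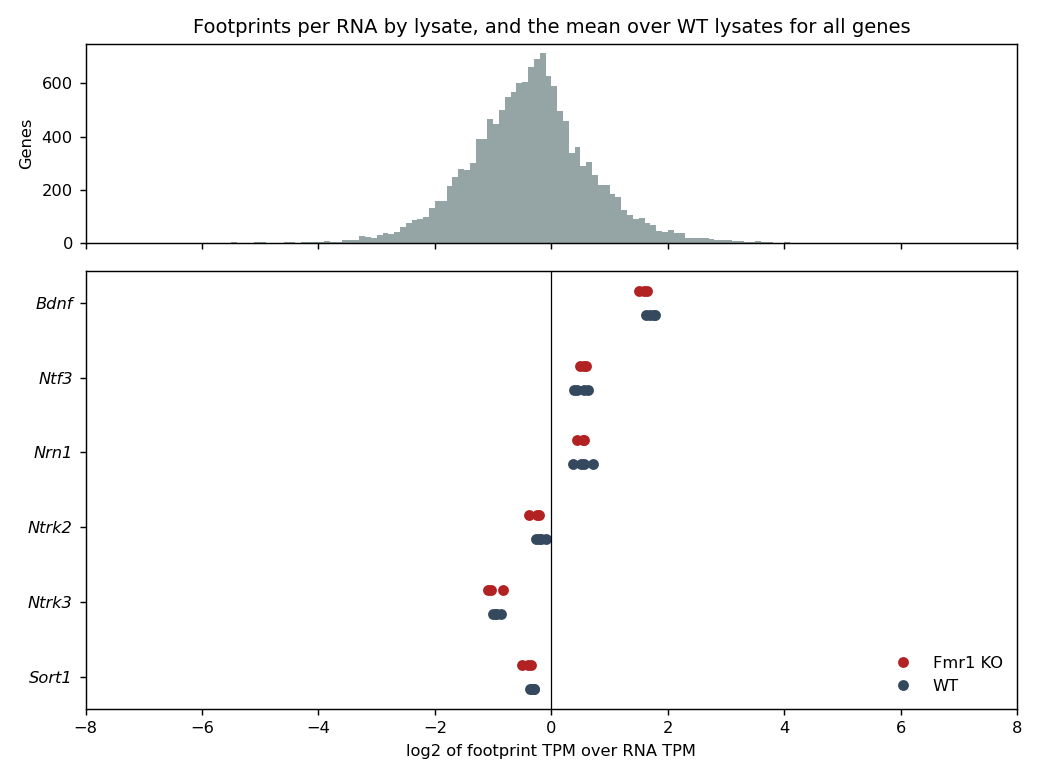
Log2 of footprint TPM over RNA TPM: above, a histogram over all genes of the mean of the WT lysates (vertical axis, number of genes), and below, the 6 genes by lysate with Fmr1 KO above WT. Bdnf lies to the right of most genes, Ntf3 and Nrn1 lie above 0, Ntrk2 and Sort1 lie near the centre of the histogram and Ntrk3 lies to its left, in both genotypes.

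In the list of further neurotrophin family and receptor genes, those that passed the test moved the same way. Of 8 genes measured outside the 6 described above, 3 fell in footprints and 0 rose (also 0 at an unadjusted p under 0.05, by DESeq2 and by limma). Over all genes tested, 10.4% fell and 8.15% rose. The median log2 difference of the 8 genes was -0.20, against -0.0001 over all genes. All 3 called genes are of the sortilin family. Sorcs2, a proBDNF co-receptor with p75NTR, had 38.7 ± 1.08 TPM in KO and 47.7 ± 1.78 TPM in WT (log2 difference -0.31 ± 0.04, edgeR adjusted p = 0.00132). Sorcs3 had 20.4 ± 0.789 TPM in KO and 24.1 ± 0.523 TPM in WT (-0.25 ± 0.04, adjusted p = 0.00224). Sorl1, a sorting receptor also of the amyloid precursor protein, had 126 ± 4.19 TPM in KO and 146 ± 4.97 TPM in WT (-0.21 ± 0.04, adjusted p = 0.00642). KO and WT libraries did not overlap for any of these 3 genes, and 15.6% of all genes had every KO library below WT. The Sorl1 call did not hold with the length trend removed (edgeR adjusted p = 0.0513). Sorcs1 was not called, with 9.22 ± 0.487 TPM in KO and 9.58 ± 0.380 TPM in WT. Ngfr, which encodes p75NTR, was low, with 2.28 ± 0.0936 TPM in KO and 2.59 ± 0.0653 TPM in WT, and was not called by edgeR but was by limma on log2(TPM + 1) (adjusted p = 0.0387). Nrn1l and Nradd had means under 3 TPM in footprints and were not called. Ngfr, Nrn1l and Nradd thus lie near the floor of the deposited values, and the size of their differences is uncertain. In RNA 0 of 7 genes tested were called, with 1 lower at an unadjusted p under 0.05 and 0 by DESeq2 or limma. Shares over all genes in RNA were 2.77% lower and 2.11% higher. Without KO replicate 3, Sorcs2 RNA was called lower (adjusted p = 0.0153).

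Genes that process, package and transport proneurotrophins were lower in footprints for 10 of 19 and higher for 0 (also 0 at an unadjusted p under 0.05, by DESeq2 and by limma), with a median log2 difference of -0.16. By the same rule 10.4% of all genes were lower and 8.15% higher. Serpini1, neuroserpin, an inhibitor of tissue plasminogen activator, had 568 ± 15.0 TPM in KO and 678 ± 14.2 TPM in WT (log2 difference -0.26 ± 0.04, edgeR adjusted p = 0.00147). Pcsk1, a prohormone convertase of dense-core vesicles, had 42.5 ± 0.970 TPM in KO and 49.4 ± 1.2 TPM in WT (-0.23 ± 0.04, adjusted p = 0.00245). Scg2, a granin of the same vesicles, had 324 ± 6.33 TPM in KO and 378 ± 12.5 TPM in WT (-0.23 ± 0.04, adjusted p = 0.00264). Hap1, which links huntingtin to motors that move BDNF vesicles, had 36.6 ± 1.06 TPM in KO and 42.3 ± 1.83 TPM in WT (-0.22 ± 0.04, adjusted p = 0.00384). The libraries of KO and WT did not overlap for these 4 genes, as for 15.6% of all genes with KO below WT. Like the genes named in the other lists, they were picked by p in the same libraries, so the separation adds no support. With 2.77% of all genes lower in RNA and 2.11% higher, 1 of the 19 genes fell there. It was Furin, the protease that cleaves proneurotrophins, with 30.4 ± 2.75 TPM in KO and 37.2 ± 2.01 TPM in WT (-0.28 ± 0.07, adjusted p = 0.0420), and it was not called without KO replicate 1 or 2 or WT replicate 1, 2 or 4, nor by limma (adjusted p = 0.0658). Without KO replicate 3, 1 gene of the list was higher in RNA.

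Signalling genes downstream of the Trk receptors were mostly not called. In footprints 5 of 47 rose and 2 fell, with a median log2 difference of 0.06, where 8.15% of all genes rose and 10.4% fell. Nedd4, a ubiquitin ligase, rose to 292 ± 16.8 TPM in KO, against 249 ± 6.89 TPM in WT (log2 difference 0.22 ± 0.04, edgeR adjusted p = 0.00300). Mapk3, the ERK1 kinase, had 89.0 ± 2.72 TPM in KO and 80.9 ± 2.07 TPM in WT (0.13 ± 0.04, adjusted p = 0.0251). Slitrk5, a TrkB partner, had 27.3 ± 0.515 TPM in KO and 29.9 ± 0.561 TPM in WT (-0.14 ± 0.03, adjusted p = 0.0154). None of these 3 genes had overlapping libraries, where 15.6% of all genes had KO below WT and 15.1% had KO above WT. The count of higher genes was 2 without KO replicate 3 and 3 without WT replicate 3 or WT replicate 4, and the count of lower genes was 0 without KO replicate 2 and 1 without any one of the others. Among the lost calls were Slitrk5 without KO replicate 2 and Mapk3 without KO replicate 1, KO replicate 3, WT replicate 2 or WT replicate 4. In RNA 1 of 47 rose, Nedd4, with 182 ± 17.7 TPM in KO and 149 ± 9.48 TPM in WT (0.29 ± 0.06, adjusted p = 0.0164). Among all genes 2.11% rose in RNA and 2.77% fell. The RNA count of higher genes was 0 without KO replicate 1 and by limma and 2 without KO replicate 3, and 2 genes were lower without KO replicate 3 and 1 without WT replicate 3.

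Partners of p75NTR split in footprints, where 8.15% of all genes were higher and 10.4% lower. Of 18 partners, 3 were higher and 5 lower, with a median log2 difference of 0.04. Those named as lower belong to the myelin-inhibitor receptor complex or its ligands. Lingo1, a co-receptor, had 124 ± 5.93 TPM in KO and 144 ± 4.94 TPM in WT (log2 difference -0.22 ± 0.04, edgeR adjusted p = 0.00384). Mag, a myelin ligand, had 447 ± 4.09 TPM in KO and 512 ± 23.0 TPM in WT (-0.20 ± 0.04, adjusted p = 0.00651), and it is itself 1 of 8 oligodendrocyte markers, of which 4 were lower and 1 higher, with overlapping sums of 13176 to 13794 TPM in KO and 13434 to 14972 TPM in WT. Omg, another myelin ligand, had 261 ± 1.50 TPM in KO and 289 ± 7.31 TPM in WT (-0.15 ± 0.03, adjusted p = 0.00822). Sqstm1, the p62 adaptor, had 528 ± 33.3 TPM in KO and 470.4 ± 14.9 TPM in WT (0.16 ± 0.04, adjusted p = 0.0174). The count of higher genes was 0 without WT replicate 4, 1 without KO replicate 1, KO replicate 3 or WT replicate 2, and 5 without KO replicate 2. That of lower genes was 3 without KO replicate 1, WT replicate 2 or WT replicate 4, and Sqstm1 was not called without WT replicate 4. In RNA 2 of 18 fell and 1 rose, against 2.77% lower and 2.11% higher over all genes. Lingo1 RNA was 187 ± 19.1 TPM in KO and 238 ± 13.1 TPM in WT (-0.35 ± 0.06, adjusted p = 0.00985), and RNA of the Nogo receptor Rtn4r was 125 ± 3.59 TPM in KO and 151 ± 10.0 TPM in WT (-0.27 ± 0.06, adjusted p = 0.0164). Without KO replicate 2, WT replicate 1 or WT replicate 4 the RNA count of lower genes was 1, as Rtn4r was lost, and the count of higher genes was 0 without KO replicate 3, WT replicate 1 or WT replicate 4.

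Transcriptional regulators of Bdnf were the list with most called genes above 0, with 7 of 22 higher in footprints and 0 lower (2 at an unadjusted p under 0.05, 0 by DESeq2 and 0 by limma) and a median log2 difference of 0.08, while Bdnf RNA itself was not called. Over all genes 8.15% were higher in footprints and 10.4% lower. Ppp3ca, the calcineurin catalytic subunit, had 1432 ± 53.4 TPM in KO and 1259 ± 15.6 TPM in WT (log2 difference 0.18 ± 0.04, edgeR adjusted p = 0.00641). Mef2c, an activity-regulated transcription factor, had 199.7 ± 15.0 TPM in KO and 171 ± 7.55 TPM in WT (0.21 ± 0.05, adjusted p = 0.00865). Its relative Mef2a had 109 ± 2.89 TPM in KO and 97.1 ± 3.63 TPM in WT (0.15 ± 0.04, adjusted p = 0.0209). Rela, an NF-kappaB subunit, had 13.5 ± 0.999 TPM in KO and 11.6 ± 0.582 TPM in WT (0.20 ± 0.05, adjusted p = 0.0223). The KO libraries of these 4 genes were all above the WT libraries, as for 15.1% of all genes in footprints. The count of higher genes was 3 without KO replicate 1 and 4 without KO replicate 3 or WT replicate 1, 2 or 3, and 1 gene was lower without KO replicate 1. Mef2a was not called without KO replicate 3 or WT replicate 3, and Rela was not called without KO replicate 1 or WT replicate 2, nor by DESeq2 (adjusted p = 0.0671). In RNA 1 of 22 rose, Mef2c, with 77.6 ± 9.73 TPM in KO and 60.4 ± 1.40 TPM in WT (0.35 ± 0.07, adjusted p = 0.0137). Shares over all genes in RNA were 2.11% higher and 2.77% lower. Without KO replicate 3 the RNA counts of the list were 2 higher and 3 lower.

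Among genes known to respond to activity or to BDNF, 6 of 30 fell in footprints and 4 rose, with a median log2 difference of -0.02. Over all genes 10.4% fell and 8.15% rose. Vgf, a BDNF-induced secreted peptide precursor, had 271 ± 12.4 TPM in KO and 348 ± 12.6 TPM in WT (log2 difference -0.37 ± 0.04, edgeR adjusted p = 0.000580). Ier2, an immediate early gene, had 99.2 ± 3.56 TPM in KO and 122 ± 1.63 TPM in WT (-0.30 ± 0.04, adjusted p = 0.000580). Both had KO libraries below all WT libraries, as had Pcsk1 and Scg2, which this list shares with the processing list. This separation held for 15.6% of all genes in footprints. In RNA 3 of 30 fell and 0 rose (1 at an unadjusted p under 0.05, 0 by DESeq2 and 1 by limma). Among all genes 2.77% fell in RNA and 2.11% rose. Vgf RNA was 156 ± 18.8 TPM in KO and 202 ± 16.7 TPM in WT (-0.37 ± 0.08, adjusted p = 0.0170). Egr1 RNA, of an immediate early transcription factor, was 85.8 ± 12.8 TPM in KO and 116 ± 9.89 TPM in WT (-0.43 ± 0.09, adjusted p = 0.0164). The count of genes higher in footprints was 8 without KO replicate 2, 1 without KO replicate 3 or WT replicate 4 and 2 without WT replicate 3. The RNA count of lower genes was 0 without KO replicate 2 and 9 without KO replicate 3, and the Vgf call was also lost without KO replicate 1.

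Genes listed as other neurotrophic factors were lower in footprints for 7 of 24 and higher for 0 (1 at an unadjusted p under 0.05, 0 by DESeq2 and 0 by limma), with a median log2 difference of -0.14. The list is mainly of secreted factors but includes Fgf13, which is not one. By the same rule 10.4% of all genes were lower and 8.15% higher. The count of higher factors was 1 without KO replicate 2 or WT replicate 2. Igf2, an insulin-like growth factor, had 122 ± 1.54 TPM in KO and 161 ± 7.70 TPM in WT (log2 difference -0.41 ± 0.04, edgeR adjusted p = 0.000346). Ptn, pleiotrophin, had 1044 ± 20.1 TPM in KO and 1201 ± 41.3 TPM in WT (-0.21 ± 0.03, adjusted p = 0.00248). Its relative Mdk, midkine, had 40.9 ± 2.83 TPM in KO and 52.7 ± 3.41 TPM in WT (-0.38 ± 0.07, adjusted p = 0.00358), and Bmp7 had 4.02 ± 0.101 TPM in KO and 5.31 ± 0.470 TPM in WT (-0.41 ± 0.07, adjusted p = 0.00456). Igf2 also fell in RNA, with 28.4 ± 0.439 TPM in KO and 39.2 ± 2.11 TPM in WT (-0.46 ± 0.08, adjusted p = 0.00999), the only 1 of 22 factors called there. Shares over all genes in RNA were 2.77% lower and 2.11% higher. DESeq2 gave no adjusted p for Igf2 RNA, so its count of lower genes was 0. Fibroblast and meningeal markers were lower in 7 of 7 genes, with footprint sums of 206 to 215 TPM in KO and 259 to 308 TPM in WT, and their part in these values was not tested. Over the 166 distinct genes of the 7 lists, 31 were lower and 19 higher in footprints, against 10.4% lower and 8.15% higher over all genes. The count of higher genes was 8 without KO replicate 3, 9 without WT replicate 4 and 12 without WT replicate 3. In TE 0 of the 166 were called, with 13 lower and 18 higher at an unadjusted p under 0.05, 2 lower and 1 higher by DESeq2 and 0 by limma. Of all genes 0.0346% were called in TE. Without KO replicate 3, 5 of the 166 were called higher in TE.

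**Figure D4:**
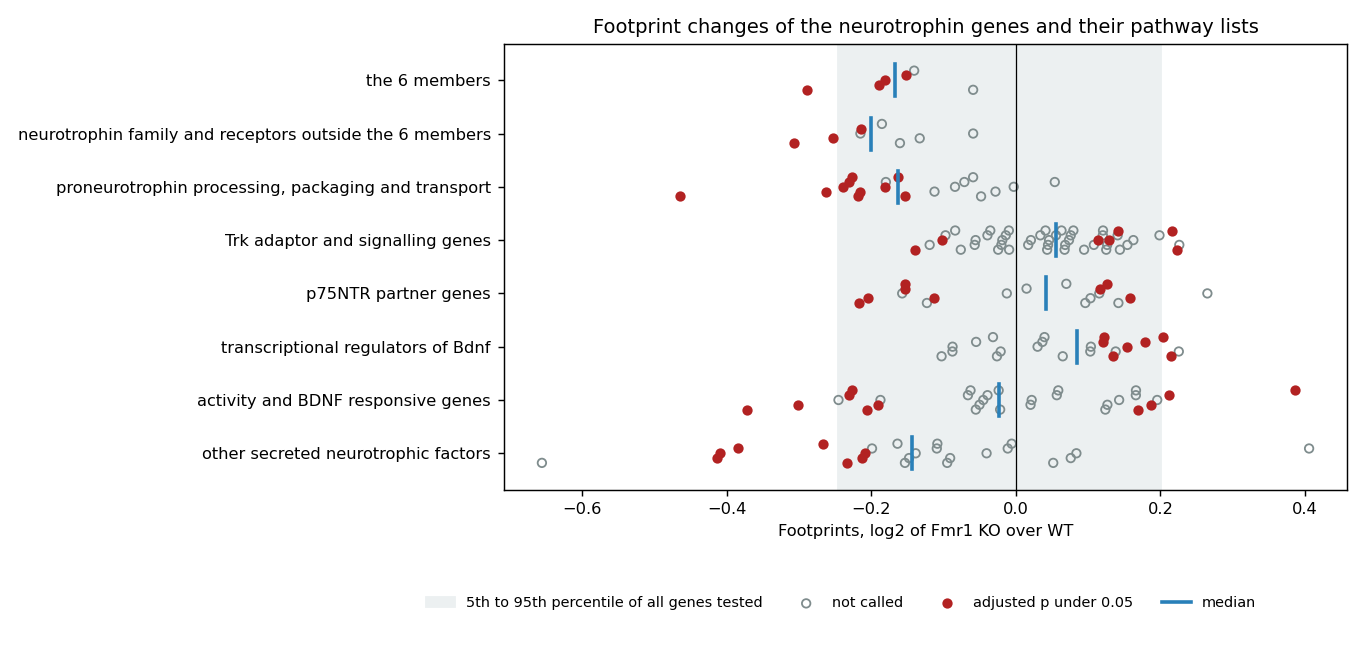
Log2 of Fmr1 KO over WT in footprints for each gene of the 7 lists and of the 6 genes described here, with 1 point per gene, coloured where the adjusted p is under 0.05, a bar at the median of each list and a grey band for the range of most genes tested. The lists of the neurotrophin family and receptors, of processing genes and of other neurotrophic factors have no called gene above 0. The list of Bdnf regulators has no called gene below 0.

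To name genes with a like pattern, each gene's log2 CPM was followed over the 14 libraries after the mean of each assay was taken out, among 9051 genes with at least 10 CPM on average in both assays. These points share the genotype difference, and the 2 assays share lysates per the protocol. The r values are the 2 highest among those 9051 genes, picked in the same libraries, and were not tested. For Nrn1 the most alike were Dscam (r = 0.982) and Pcdh17 (r = 0.950), both cell adhesion genes. Sort1 was most like Dpp6 (r = 0.97) and Tmed4 (r = 0.966), and Ntrk3 most like Jam3 (r = 0.966) and Pcnxl3 (r = 0.963). Ntrk2 was followed by Npy2r (r = 0.961) and Syt2 (r = 0.956). Bdnf had the lowest such values, with Ap1s2 (r = 0.858) and Irak1bp1 (r = 0.858), and Ntf3 had Gpr34 (r = 0.877) as its second most alike gene.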

How the data were processed

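Reads were processed by the authors with cutadapt 1.7.1, Trimmomatic 0.32, Bowtie2 2.1.0, TopHat2 2.0.9, SAMtools 0.0.19, bedtools and RSEM 1.2.11 on mm10, per the submitters' processing notes. The authors deposited estimated counts per gene and TPM, both from RSEM. Deposited counts over deposited TPM equal a gene term times a library term, the same gene term in both assays, which relative to Bdnf was 3.44 for Sort1, 3.04 for Ntrk3, 2.36 for Ntrk2, 1.07 for Ntf3 and 0.523 for Nrn1. Whether that length is coding or whole-transcript length is not given in the sources used here.

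Estimated counts were rounded and tested with edgeR 4.0.16 (filterByExpr with a minimum count of 10, TMM, robust quasi-likelihood F-test, Benjamini-Hochberg over all genes) in R 4.3.3, separately for RPF and RNA, and for TE as an interaction with no term for the shared lysate. All 6 genes passed the filter in every comparison. Levels are deposited TPM, while fold changes come from counts. SEs and intervals were derived from the F statistic. For some low-count genes, such as Bdnf and Ntf3 in RNA, the edgeR p is larger than these imply, and they are too narrow. Alternatives were DESeq2 1.42.0, limma 3.58.1, other scalings and filters, a length trend, replicate terms and each library left out. The scripts were tested on simulated data. Within groups, the contrast of replicates 1 and 2 with 3 and 4 held 4.74% (RPF) and 3.72% (RNA) of the variance, where equal shares would be 20%. The deposited values may thus have been adjusted for replicate sets, no source states it, and p-values may be too small. Sequences and coordinates are from RefSeq (GRCm38.p6), and promoter windows matched 3 of the 6 genes.

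The 6 genes, the lists and the markers were chosen with earlier results of these data known. Of 174 symbols listed for the pathway, 6 were not matched. Named in the text are Fmr1, the 6 genes, measured genes of the list of neurotrophin family and receptors, up to 4 called genes per list in RPF and 2 in RNA by smallest p, and 2 genes of like pattern per gene. The first gene of the Ntf3 pair is an unnamed locus and is left out, and some genes that the rule names are not reported here.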

Additional observations from a re-analysis of the deposited data

How the results depend on the processing

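The 4 footprint calls of Ntrk2, Ntrk3, Sort1 and Nrn1 held in all 16 alternatives each, with adjusted p of at most 0.0433, 0.00987, 0.0255 and 0.0294, and Bdnf and Ntf3 footprints were called in none (adjusted p of at least 0.309 and 0.0899). The RNA call of Ntrk3 was lost in 6 of 16 (adjusted p 0.00380 to 0.0988). No TE difference of the 6 genes was called in any alternative. With each library left out in turn, TE ran from -0.0053 to 0.091 for Ntf3 and from -0.095 to 0.016 for Nrn1, the only sign changes among the 6 genes. DESeq2 gave no adjusted p for Bdnf or Ntf3 RNA or Ntf3 TE. Of 788 values of the other named genes, 39 lost their call and 8 changed sign. These sign changes were in values that were never called: TE of Nradd (0.0058 with limma, 0.0029 on ratios per lysate, -0.17 to 0.11 with 1 library left out) and of Nrn1l (-0.63 to 0.0087), and RNA of Sorcs3 (-0.074 to 0.0026) and Sorcs1 (-0.013 to 0.077). Causes were not tested.

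Over all genes, footprint calls (1177 higher, 1500 lower) ranged from 719 to 1086 higher and 1051 to 1303 lower with 1 library left out, and the higher count moved by over 1.5 times without KO replicate 3 or WT replicate 4. RNA calls (293 higher, 385 lower) ranged from 94 to 352 and from 122 to 520, with at least 1 direction moving that far without any one library but KO replicate 3, and the lowest counts without WT replicate 4 and KO replicate 2. TE calls (2 higher, 3 lower) ranged from 1 to 57 and from 1 to 11, both highest without KO replicate 3. RNA calls were 168 and 244 with limma on log2(TPM + 1), 174 higher with a pseudocount of 0.1, and 151 and 211 with replicates 1 and 2 against 3 and 4 as a term. TE calls were 51 and 38 with DESeq2, 39 and 31 with limma, 40 and 30 with the smaller pseudocount, 11 and 7 with the length trend removed, and 0 higher with limma on ratios per lysate.

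No pairing of KO with WT by replicate number was seen. Same-number correlations of deviations were -0.11, 0.19 and -0.53 in RPF and -0.01, 0.04 and -0.30 in RNA. An adjustment for replicate sets, if one was made, could have removed such likeness, so this check cannot exclude a pairing. With the number as a replicate block, calls were 429 higher and 875 lower in RPF and 73 and 131 in RNA, Ntrk2 footprints had an adjusted p of 0.0433 and Ntrk3 RNA one of 0.0814. The block also ended the footprint calls of Mef2c (0.0604), Mef2a, Rela, Mapk3, Slitrk5 and Sqstm1 and the RNA calls of Igf2 (0.0691), Furin and Rtn4r.

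On the CPM scale, without lengths, log2 footprints over RNA in KO and WT were 1.87 and 2.01 for Bdnf, 0.85 and 0.81 for Ntf3, 0.81 and 0.84 for Nrn1, 0.015 and 0.11 for Ntrk2, -0.69 and -0.64 for Ntrk3, and -0.13 and -0.028 for Sort1, a shift of a library term common to all genes. Depth limits Bdnf and Ntf3 RNA most.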
